A study of Mus musculus with 12 samples.

Results

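The 35 genes described here, out of 55487 genes in the deposited tables, were listed for astrocytes. Of these, 15 mark the cell type itself and 20 are known to rise when astrocytes become reactive. Some of the 20, such as Srgn, Tm4sf1 and Vim, are also genes of other cells. All 35 were taken by gene symbol, and every one was found. The study sequenced polyadenylated RNA from mouse cerebral cortex 2 hr after controlled cortical impact (CCI), a piston injury that models brain trauma, from the injured (ipsilateral) and the opposite (contralateral) side. Control mice (wt below) carried CX3CR1cre-er/+ alone, and cKO mice carried CX3CR1cre-er/+ with STING fl/fl, floxed copies of the adaptor that relays cytosolic DNA sensing. Each of the 4 groups of genotype and side had 3 libraries, all 12 from animals with CCI, and no library came from an uninjured mouse. The Cre is driven by Cx3cr1, a gene of microglia and of blood monocytes, so the deletion was not aimed at astrocytes. The series' design text writes CX3CR1cre/+ where the sample labels write cre-er for the floxed mice, and neither mentions tamoxifen. Whether the libraries of 1 group are separate mice is not stated, so the spread behind each p-value may be technical.

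Astrocytes take up glutamate through the transporters Slc1a2 and Slc1a3, convert it to glutamine with Glul, move water through Aqp4 at their endfeet on vessels, and form a coupled network through the connexins Gja1 and Gjb6. After injury they can become reactive: the intermediate filaments Gfap, Vim and Nes increase, and further genes are induced that have been sorted in mice into a shared panel, an A1 panel raised after systemic inflammation and an A2 panel raised after ischaemia. Filament changes in injured cortex are usually described over days, while cytokine signals that precede them appear within hours.

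Library totals ran from 20779210 to 33567194 counts in 11 libraries and 7958931 counts in cKO ipsilateral library 3. STING itself (Tmem173) was at 2.34 to 3.69 CPM (counts scaled to a common library size) in the 6 wt libraries and at 0.762 to 2.44 CPM in the 6 cKO libraries, so the ranges overlap in 1 cKO ipsilateral library. Of the 35 genes, 33 passed the filter on low counts and were tested, including all 15 identity genes and 18 of 20 reactivity genes. The other two, Tgm1 (a transglutaminase) and Slc10a6 (a sterol sulfate transporter), had at most 8 and 5 counts in any library.

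On the scale of TPM, transcript abundance corrected for gene length, identity genes held most of the top of the order. Glul, which makes glutamine, led at 881 to 1363 TPM over the 12 libraries, and the aldolase Aldoc followed at 812 to 1078 TPM. Slc1a2, the main glutamate transporter, stood at 302 to 507 TPM. Sox9, a transcription factor of astrocytes, was the lowest identity gene at 3.42 to 8.37 TPM. Among reactivity genes, Gfap was the highest at 57.4 to 117 TPM, beside the connexin gene Gja1 at 71.0 to 103 TPM. The enzyme genes Ggta1 (a galactosyltransferase) and B3gnt5 (a glycolipid-building transferase), the hyaluronan receptor gene Cd44, the metalloreductase gene Steap4 and the surface protein gene Cd109 were each at a mean below 1.5 TPM. Each of the 15 identity genes, listed as astrocyte markers, had at least 151 counts in every library. Their presence does not show which cells the reactivity transcripts came from.

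In injured cortex 2 hr after impact, 3 of 18 tested reactivity genes rose in both genotypes while the filament genes passed the test in neither. Gfap also passed in cKO with the replicate number as a block in the fit (edgeR adjusted p 0.0384) and with no filter on low counts. Over all 16836 tested genes, 2.73% rose in wt and 2.56% in cKO. Emp1, which encodes a small membrane protein of the A2 panel, rose 6.13-fold in wt and 12.05-fold in cKO. Srgn, the core protein of a secretory granule proteoglycan and a gene of the A1 panel, rose 3.36-fold and 3.43-fold. Tm4sf1, a tetraspanin-like membrane protein of the A2 panel, rose 1.63-fold and 1.83-fold. Among identity genes, Sox9 rose in both genotypes, 1.82-fold and 1.70-fold, and 4 others rose by less in wt. On mm10, per GENCODE M21, Emp1 (ENSMUSG00000030208) lies on chromosome 6 from 135362545 to 135383173, Srgn (ENSMUSG00000020077) on chromosome 10 from 62493833 to 62527451, Tm4sf1 (ENSMUSG00000027800) on chromosome 3 from 57285611 to 57301988, and Sox9 (ENSMUSG00000000567) on chromosome 11 from 112782224 to 112787760.

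Emp1 was at 2.52, 2.73 and 2.92 CPM in wt contralateral libraries 1 to 3 and at 12.9, 19.8 and 17.4 CPM in the wt ipsilateral libraries. In cKO it was at 1.26, 1.70 and 2.33 CPM contralaterally and at 25.4, 18.3 and 17.8 CPM ipsilaterally. All 6 ipsilateral libraries were above all 6 contralateral ones, and cKO ipsilateral library 1 was the highest of the 12. The log2 difference between sides was 2.62 ± 0.21 (SE, n = 3 against 3) in wt and 3.59 ± 0.22 in cKO, with edgeR adjusted p of 1.39e-06 and 1.12e-07.

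Srgn was at 4.90, 4.70 and 5.28 CPM in wt contralateral cortex and at 16.8, 17.4 and 15.8 CPM on the injured side. The cKO values were 4.40, 5.497 and 4.67 CPM against 13.7, 21.7 and 13.7 CPM. The sides did not overlap in either genotype, and library 2 alone lifted the cKO ipsilateral spread. Differences were 1.75 ± 0.16 in wt and 1.78 ± 0.17 in cKO on the log2 scale (SE, edgeR adjusted p 8.40e-06 and 8.89e-06). Serglycin is made by leukocytes and endothelial cells as well as by glia, and bulk tissue does not show which cell a transcript came from.

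Tm4sf1 held a narrow contralateral range in wt, at 9.74, 9.78 and 9.77 CPM, against 13.97, 17.2 and 16.5 CPM ipsilaterally. In cKO it was at 8.75, 9.42 and 8.48 CPM against 17.2, 18.0 and 12.7 CPM. Again no injured library fell into the contralateral range, though cKO ipsilateral library 3 came closest to it. The log2 differences were 0.70 ± 0.12 and 0.87 ± 0.13 (SE, edgeR adjusted p 0.00389 and 0.000639). On the TPM scale the differences were 0.47 and 0.65 and did not pass (limma on log2(TPM + 1), adjusted p 0.196 and 0.0775). Tm4sf1 is also a known gene of vascular endothelium.

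**Figure D1:**
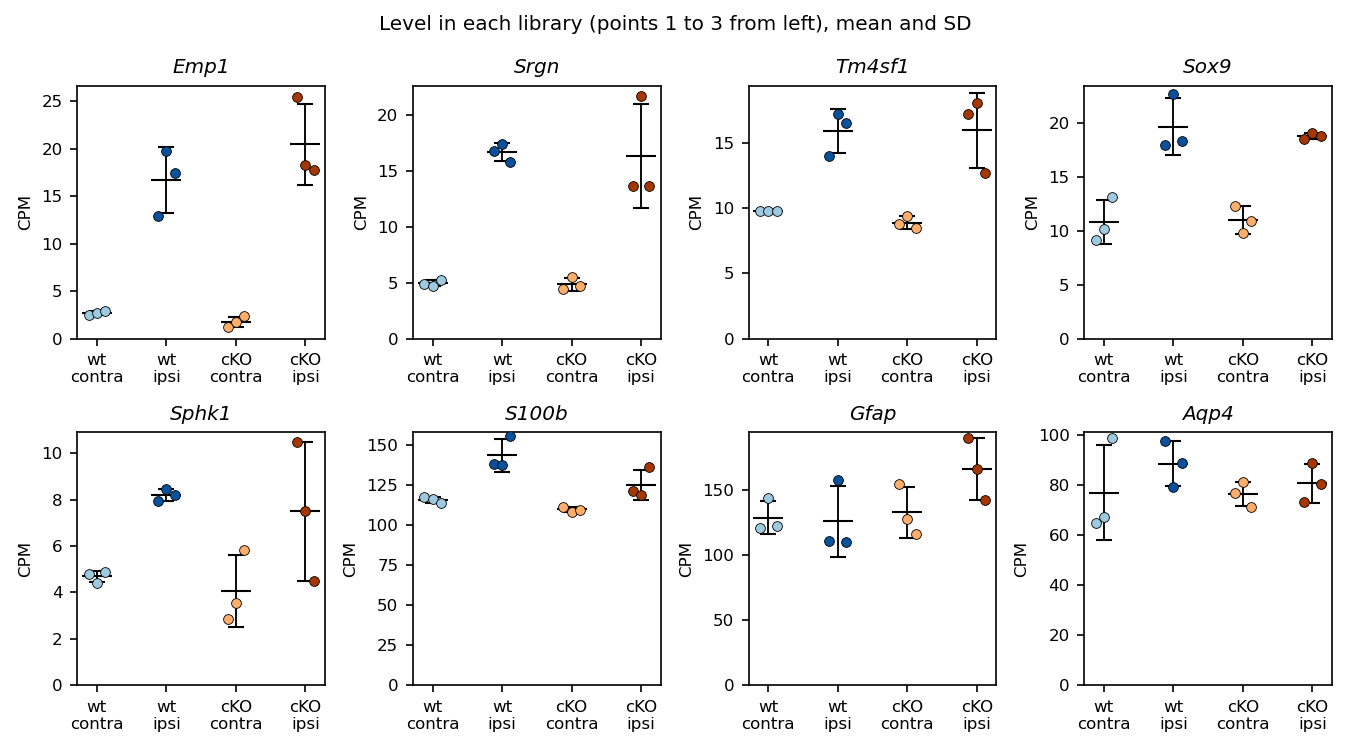
Scaled counts (CPM, y axis from 0) of 8 genes in each of the 12 libraries, 3 per group, as points in replicate order with the mean and SD. Emp1, Srgn, Tm4sf1 and Sox9 lie higher in every ipsilateral than in every contralateral library, whereas the sides overlap for Gfap and Aqp4 in both genotypes.

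None of the 18 tested reactivity genes fell in either genotype. The median log2 difference of the 18 was 0.15 in wt and 0.33 in cKO, against -0.01 over all tested genes in both comparisons. The wt median was -0.0888 on the TPM scale (limma on log2(TPM + 1)), with 6 of 14 genes above 0 and all tested genes at -0.18, and it was 0.28 without wt ipsilateral library 1. By panel, 0 of 3 filament genes, 0 of 6 shared genes, 1 of 3 A1 genes and 2 of 6 tested A2 genes rose, with the same counts in the 2 genotypes. Gfap, 1 of 3 filament genes, passed in cKO with the replicate block and with no filter on low counts.

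Since Emp1, Srgn and Tm4sf1 rose while Gfap did not pass the test, the DNA just before their annotated starts is shown, from RefSeq on build GRCm38.p6 and with annotated exons of other transcripts left out. Windows of 250 bases before each start were searched on both strands for the AP-1 motif TGANTCA, the CRE motif TGACGTCA, the STAT motif TTCNNNGAA, and the kappaB and CArG motifs. Capitals mark matches, and each run is written 5′ to 3′ on the strand of its gene.
Tm4sf1, chr3:57301989-57302238, minus strand: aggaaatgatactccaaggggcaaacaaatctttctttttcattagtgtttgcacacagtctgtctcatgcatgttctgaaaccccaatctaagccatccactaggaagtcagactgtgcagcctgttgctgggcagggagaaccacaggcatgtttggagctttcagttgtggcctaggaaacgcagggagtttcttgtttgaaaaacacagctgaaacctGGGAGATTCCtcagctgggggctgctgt
Emp1, upstream start, chr6:135362708-135362903, plus strand: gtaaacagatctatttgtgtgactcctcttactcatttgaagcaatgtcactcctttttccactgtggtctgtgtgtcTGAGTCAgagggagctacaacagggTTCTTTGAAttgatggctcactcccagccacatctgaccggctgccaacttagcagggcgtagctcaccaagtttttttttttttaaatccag
Srgn, chr10:62527452-62527695, minus strand: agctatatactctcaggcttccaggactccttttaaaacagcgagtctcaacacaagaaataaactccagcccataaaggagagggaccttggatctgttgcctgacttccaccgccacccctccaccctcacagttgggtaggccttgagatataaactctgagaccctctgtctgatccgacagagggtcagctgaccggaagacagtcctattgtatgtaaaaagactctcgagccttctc
Gfap, chr11:102897201-102897450, minus strand: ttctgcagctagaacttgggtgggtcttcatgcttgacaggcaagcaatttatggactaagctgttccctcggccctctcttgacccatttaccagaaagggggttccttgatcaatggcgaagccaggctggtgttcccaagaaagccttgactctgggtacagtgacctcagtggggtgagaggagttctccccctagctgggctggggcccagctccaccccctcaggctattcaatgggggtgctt
The Emp1 run holds 1 AP-1 and 1 STAT match, of 2 each in its whole window, and the Tm4sf1 run 1 kappaB match, while the Srgn and Gfap runs hold none of the searched letters. The windows at the other annotated starts of Emp1 and Srgn held no match. Over all 32851 promoter windows of that length, 6.75% held an AP-1 match, 7.02% a STAT match, 3.90% a kappaB match, 1.55% a CRE match and 1.47% a CArG match. Promoters were available for 30 of the 35 genes (12 identity and 18 reactivity), in 43 windows, since some genes have several annotated starts. Of these windows 5 held an AP-1 match (11.6%), 8 a STAT match (18.6%) and 6 a kappaB match (13.95%), from 4, 7 and 5 genes, and 0 held a CRE or CArG match. Overlapping windows were counted separately, here and over all windows. In 2 overlapping Sphk1 windows the AP-1 match covers the same bases, and so does the STAT match. A match describes letters and does not show a bound site.

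Gfap, the filament gene most used to mark reactive astrocytes, was at 121, 143 and 122 CPM in wt contralateral cortex and at 110, 157 and 110 CPM in wt ipsilateral cortex. The cKO libraries held 154, 128 and 116 CPM contralaterally and 190, 166 and 142 CPM ipsilaterally. The ranges overlap in both genotypes, and wt ipsilateral libraries 1 and 3 were the lowest of the 12. The log2 difference was -0.03 ± 0.14 in wt and 0.33 ± 0.14 in cKO (SE, edgeR adjusted p 0.949 and 0.319). With the replicate number as a block in the fit the cKO difference was 0.32 and passed the test (edgeR adjusted p 0.0384). Gfap also passed in cKO with no filter on low counts, where 856 of 29438 genes rose. Without any of wt contralateral library 2, wt ipsilateral library 1 or wt ipsilateral library 3, the wt value lay at 0.05 to 0.06, above 0.

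Vim, the filament partner of Gfap that is also found in endothelial and mesenchymal cells, was at 44.4, 41.3 and 41.6 CPM contralaterally and 37.3, 51.7 and 49.7 CPM ipsilaterally in wt. In cKO it was at 38.7, 40.6 and 40.7 CPM against 47.8, 53.9 and 45.7 CPM. The sides overlap in wt and do not in cKO, where the share of tested genes with no overlap and a higher ipsilateral level was 10.8%. Neither difference passed the test (0.12 ± 0.11 and 0.30 ± 0.11 on the log2 scale, edgeR adjusted p 0.651 and 0.204). Nes, a filament of neural progenitors and reactive glia, ran from 13.7 to 25.6 CPM contralaterally and from 14.02 to 27.9 CPM ipsilaterally over both genotypes, without passing the test.

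The remaining 4 tested A2 genes had log2 differences above 0 in both genotypes without passing the test. Sphk1, the kinase that makes sphingosine 1-phosphate, was at 4.80, 4.42 and 4.86 CPM against 7.95, 8.45 and 8.19 CPM in wt, with no overlap. In cKO it was at 2.85, 3.54 and 5.81 CPM against 10.5, 7.53 and 4.48 CPM, where the low library is the shallow library 3. S100a10, an annexin partner, ran from 16.4 to 21.7 against 20.9 to 23.1 CPM in wt and from 17.9 to 20.5 against 19.9 to 23.8 CPM in cKO, and Cd109 from 0.622 to 1.80 CPM over all 12 libraries. Both overlapped in both genotypes. B3gnt5 was at 0.276 to 0.674 CPM against 0.494 to 0.983 CPM in wt and at 0.256 to 0.411 CPM against 0.498 to 0.865 CPM in cKO.

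Of the shared panel, Cd44 and Steap4 varied between the injured cKO libraries. Cd44, a receptor for hyaluronan, was at 1.59, 2.07 and 2.66 CPM against 3.15, 3.26 and 2.18 CPM in wt. In cKO it was at 1.47, 2.17 and 1.29 CPM against 3.39, 5.57 and 1.87 CPM, so library 2 was highest and library 3 fell into the contralateral range. Steap4, which reduces iron and copper, was at 0.382, 0.937 and 0.571 CPM against 2.38, 2.36 and 0.498 CPM in cKO, again with library 3 low. Its wt values were 0.345, 0.311 and 0.599 CPM against 0.410, 0.773 and 1.03 CPM, which overlap. Without cKO ipsilateral library 3, Cd44, Steap4 and Sphk1 passed the test in cKO and the count of reactivity genes that rose there was 6 in place of 3. Aspg (an asparaginase), S1pr3 (a receptor for sphingosine 1-phosphate), Serpina3n (a protease inhibitor of the acute phase) and Cp (the copper ferroxidase ceruloplasmin) did not pass in either genotype. S1pr3 ran from 8.78 to 11.6 against 11.2 to 14.3 CPM in wt and from 9.72 to 10.9 against 9.85 to 12.7 CPM in cKO. Cp lay between 13.8 and 20.9 CPM and Aspg between 2.11 and 3.78 CPM over all 12 libraries. Serpina3n, often a strong marker of reactive astrocytes at later times, was at 12.5 to 13.5 CPM against 10.3 to 13.1 CPM in wt and at 12.5 to 15.8 CPM against 10.7 to 14.3 CPM in cKO.

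The 2 other A1 genes did not pass the test in either genotype. Ggta1 was at 3.42, 2.695 and 3.97 CPM against 2.01, 2.704 and 2.798 CPM in wt and at 2.99, 2.43 and 1.90 CPM against 3.42, 3.003 and 2.86 CPM in cKO. Its wt libraries thus lay lower on the injured side and its cKO libraries higher, with overlap in both. Amigo2, an adhesion protein, was at 5.70 to 6.57 CPM against 4.38 to 6.78 CPM in wt and at 5.57 to 6.35 CPM against 5.25 to 6.47 CPM in cKO. Without strand in the counting, reads of Cp and Hps3 and of Amigo2 and Pced1b, which overlap on opposite strands, cannot be told apart. The strand setting is not given in the sources used here. Mean counts were 429 for Cp and 279 for Hps3, and 143 for Amigo2 and 85.2 for Pced1b.

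**Figure D2:**
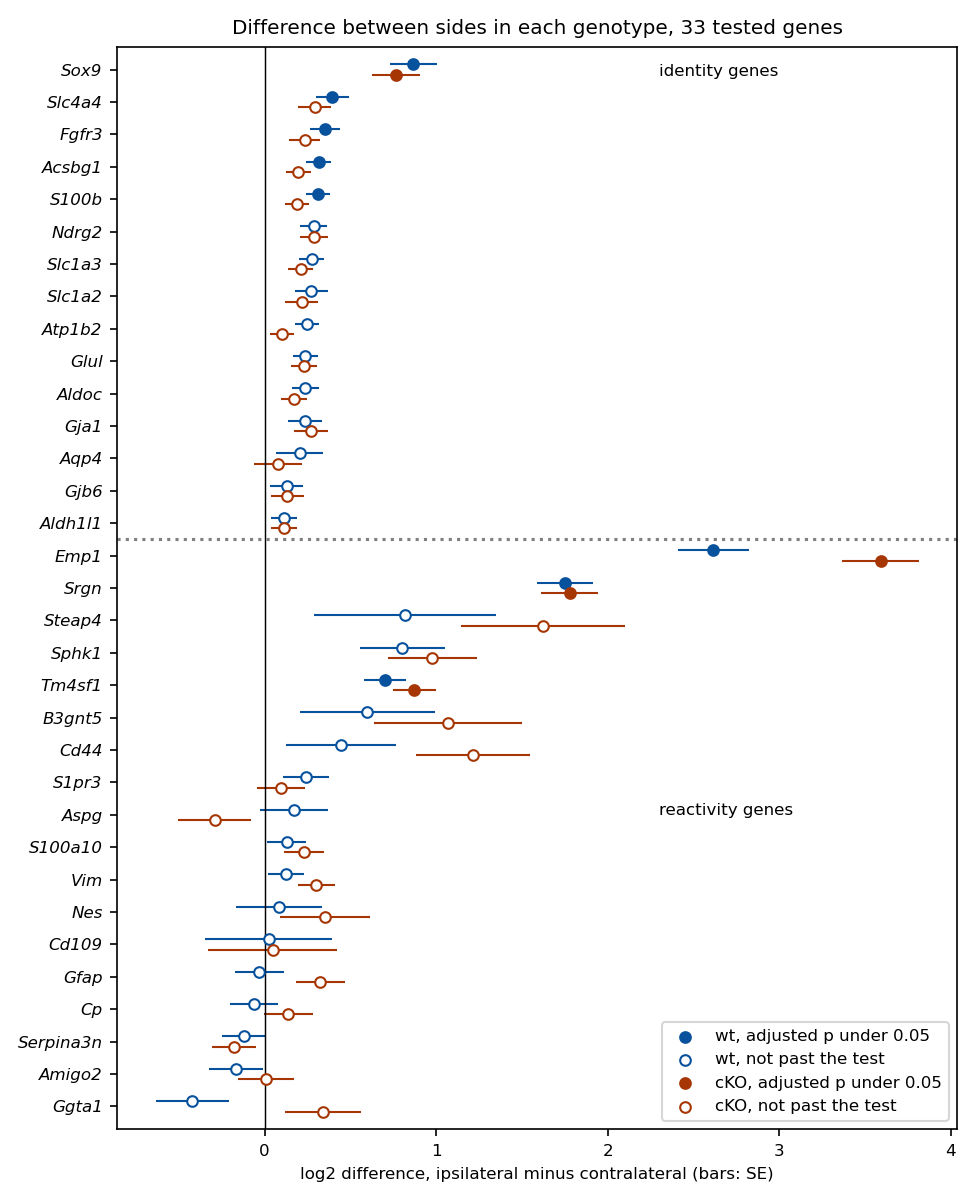
Log2 difference of ipsilateral over contralateral cortex (x axis, bars are SE) for the 33 tested genes in wt and in cKO, identity genes above the dotted line and reactivity genes below. All 15 identity genes lie above 0 in both genotypes, by small amounts apart from Sox9 (0.87 in wt and 0.77 in cKO). Reactivity genes run from -0.42 for Ggta1 in wt to 3.59 for Emp1 in cKO.

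Identity genes differed in the same direction, and by small amounts apart from Sox9. All 15 had a log2 difference above 0 in wt and all 15 in cKO, where 48.8% and 48.6% of tested genes were above 0. Their median was 0.27 in wt and 0.21 in cKO, against -0.01 over all tested genes and -0.04 and -0.05 over the 5908 genes with a mean of at least 20 TPM. On the TPM scale the wt median was 0.0751, with 13 of 15 above 0 (limma on log2(TPM + 1)). In wt 5 of 15 rose (Sox9, Slc4a4, Fgfr3, Acsbg1 and S100b) and in cKO 1 of 15 (Sox9). The contralateral and ipsilateral CPM did not overlap, with the injured side higher, for 10 of 15 in wt and 12 of 15 in cKO, against 10.5% and 10.8% of all tested genes. Fewer cells of a type and less RNA per cell cannot be told apart in bulk tissue, and the same holds for more cells and more RNA per cell.

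Sox9, which sets astrocyte fate, was at 9.11, 10.2 and 13.1 CPM in wt contralateral cortex and at 17.9, 22.7 and 18.4 CPM in wt ipsilateral cortex. In cKO it was at 12.3, 9.80 and 10.9 CPM against 18.5, 19.1 and 18.8 CPM. The sides were far apart, and the 3 cKO ipsilateral libraries were nearly equal. The log2 differences were 0.87 ± 0.14 and 0.77 ± 0.14 (SE, edgeR adjusted p 0.00165 and 0.00489). On the TPM scale they were 0.56 and 0.62 and did not pass (limma on log2(TPM + 1), adjusted p 0.160 and 0.10).

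S100b, a calcium-binding protein of astrocytes, was at 117, 116 and 114 CPM against 138, 137 and 156 CPM in wt, a log2 difference of 0.31 ± 0.07 (SE, edgeR adjusted p 0.0234). Its cKO values were 111, 108 and 110 CPM against 121, 119 and 136 CPM, also without overlap, but the difference did not pass. Acsbg1, an acyl-CoA synthetase, was at 181, 169 and 153 CPM against 197, 210 and 219 CPM in wt, a difference of 0.32 ± 0.07 (edgeR adjusted p 0.0256). These 2 rises were of about the same size.

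Slc4a4, a sodium bicarbonate cotransporter, was at 104, 99.8 and 131 CPM against 151, 137 and 152 CPM in wt (log2 difference 0.39 ± 0.09, edgeR adjusted p 0.0361). Fgfr3, a fibroblast growth factor receptor, was at 110, 102 and 107 CPM against 130, 139 and 138 CPM in wt (log2 difference 0.35 ± 0.09, edgeR adjusted p 0.0440). Neither pair of ranges overlaps. With library totals in place of TMM scaling, and on the TPM scale, none of the 4 calls other than Sox9 passed. They also depend on single libraries: without wt contralateral library 2 or without wt ipsilateral library 3, Sox9 was the 1 identity gene that passed, and the other 4 had adjusted p of 0.1003 to 0.208 in those 2 fits. Fewer passed also without wt contralateral library 1 (3, S100b, Slc4a4 and Fgfr3 being lost, at adjusted p of 0.0563, 0.128 and 0.0742), without wt ipsilateral library 2 (2) and without cKO contralateral library 1 (3). Fgfr3 was also lost without cKO contralateral library 2 or cKO ipsilateral library 3, and Slc4a4 without cKO ipsilateral library 1 or 2. Over the 24 alternative settings, Fgfr3 passed in 10 and Slc4a4 in 12. Without wt contralateral library 3, 7 passed, Aqp4 among them (log2 difference 0.42, edgeR adjusted p 0.0222).

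The most abundant identity genes did not pass the test in either genotype. Glul ran from 1595 to 1701 CPM contralaterally and from 1788 to 2040 CPM ipsilaterally in wt, and from 1475 to 1648 and from 1680 to 2000 CPM in cKO. Aldoc was at 848 to 978 against 984 to 1156 CPM in wt and at 894 to 980 against 1008 to 1132 CPM in cKO. None of these ranges overlaps. Glul was at 0.24 ± 0.07 in wt and 0.23 ± 0.07 in cKO (log2 difference ± SE, edgeR adjusted p 0.119 and 0.155), Aldoc at 0.24 ± 0.08 and 0.17 ± 0.08 (0.138 and 0.330), and Ndrg2, a cytoplasmic protein enriched in astrocytes, at 0.29 ± 0.08 in both (0.0741 and 0.0772). For Slc1a3 the wt CPM were 518, 531 and 580 against 623, 642 and 703. Slc1a2 overlapped in wt, at 2309 to 3119 CPM against 2889 to 3288 CPM. Slc1a3 had no overlap in wt, and for both genes an injured library was the highest.

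Aqp4, the water channel of the endfeet, was at 64.7, 67.0 and 98.8 CPM against 97.3, 79.1 and 88.8 CPM in wt and at 76.8, 81.0 and 71.1 CPM against 72.9, 88.7 and 80.1 CPM in cKO. The sides overlap in both genotypes, with wt contralateral library 3 the highest of all 12. The log2 differences were 0.20 ± 0.14 and 0.08 ± 0.14 (SE, edgeR adjusted p 0.538 and 0.845). The connexin Gja1 ran from 137 to 171 CPM contralaterally and 170 to 187 CPM ipsilaterally in wt, and from 134 to 161 against 167 to 204 CPM in cKO. Atp1b2, a sodium pump subunit, was at 428 to 499 against 525 to 565 CPM in wt and at 440 to 501 against 503 to 521 CPM in cKO. Aldh1l1, a folate enzyme used to label astrocytes, was at 76.8 to 89.6 against 86.2 to 97.8 CPM in wt and at 81.6 to 89.6 against 92.5 to 94.8 CPM in cKO. Gja1 and Aldh1l1 overlap in wt and not in cKO, Atp1b2 overlaps in neither, and none of the 3 passed the test.

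**Figure D3:**
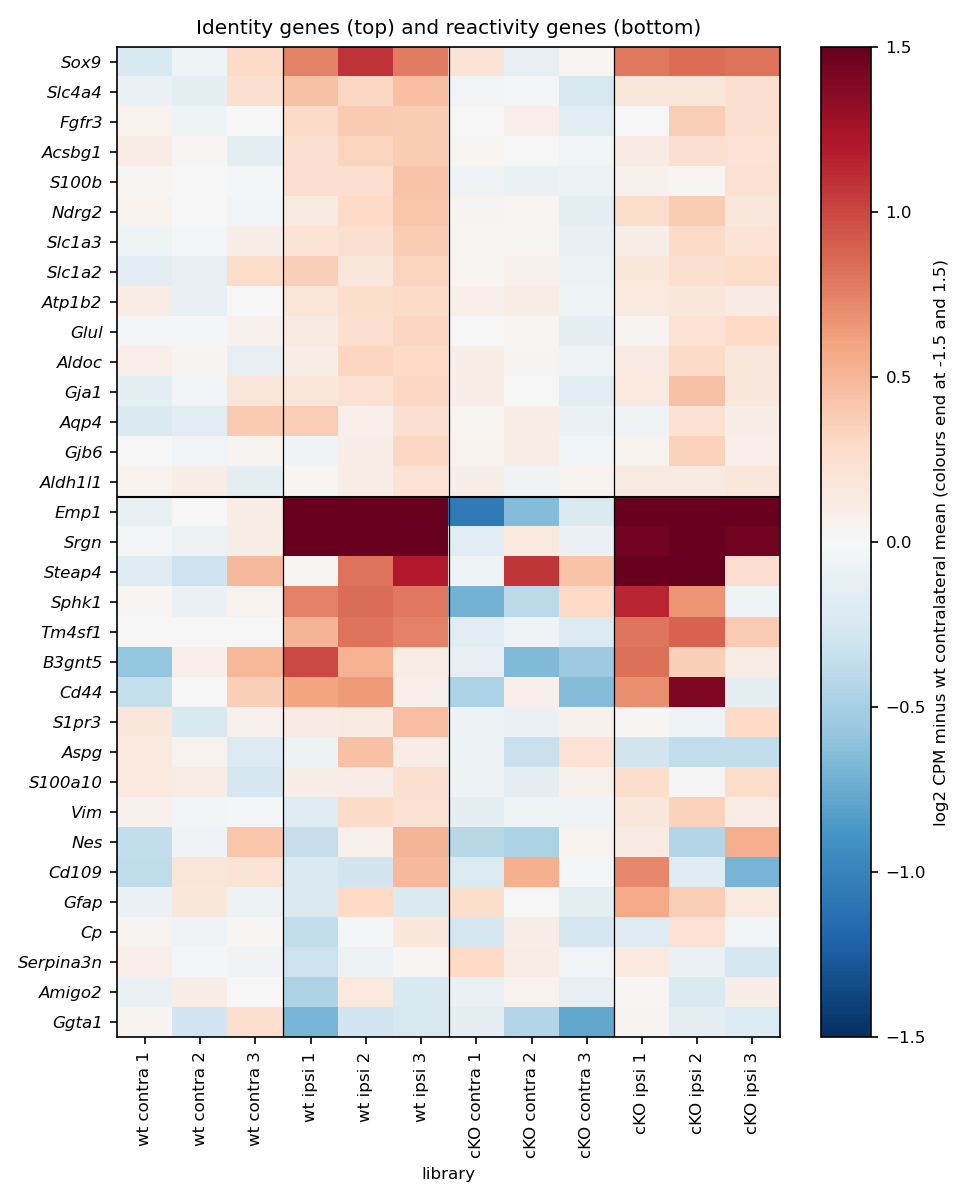
Log2 CPM of the 33 tested genes in each library minus the mean of the wt contralateral libraries (colour, ending at -1.5 and 1.5), identity genes above the line and reactivity genes below. The ipsilateral columns are red over nearly all identity genes and, among reactivity genes, for Steap4, Srgn, Emp1, S100a10, B3gnt5 and Tm4sf1, which are above 0 in all 6 of them.

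Library by library, the 2 classes followed different orders. The median deviation of the identity genes from the wt contralateral mean was 0.20, 0.25 and 0.33 on the log2 scale in wt ipsilateral libraries 1 to 3 and 0.13, 0.24 and 0.20 in the cKO ipsilateral ones. For the reactivity genes it was -0.03, 0.29 and 0.23 in wt ipsilateral and 0.41, 0.28 and 0.11 in cKO ipsilateral libraries. The reactivity median was thus lowest, among injured libraries, in wt library 1 and cKO library 3. Of the 15 identity genes, 10 were highest in library 3 within wt ipsilateral cortex and 10 in library 2 within cKO ipsilateral cortex.

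**Figure D4:**
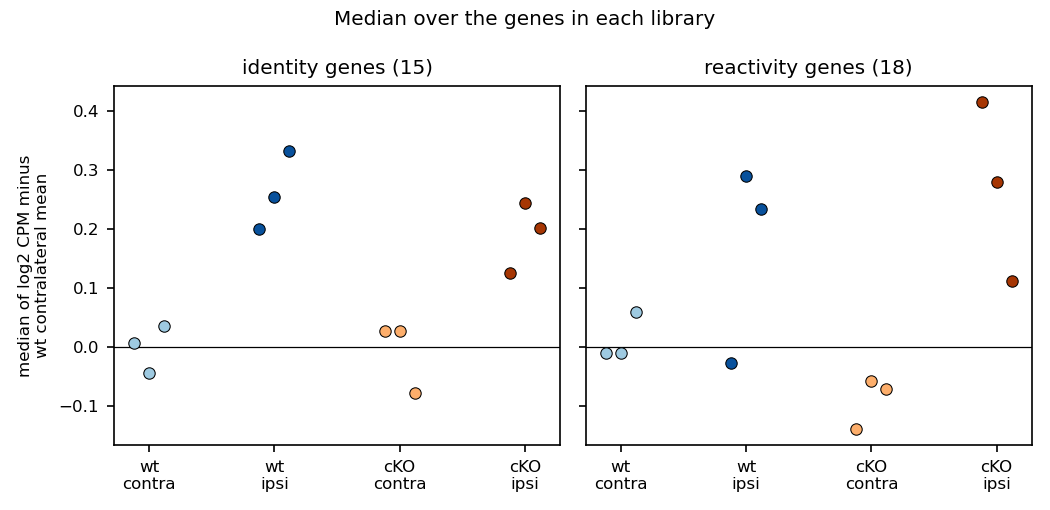
Median over the 15 identity genes (left) and the 18 tested reactivity genes (right) of log2 CPM minus the wt contralateral mean, 1 point per library. The identity medians of the 6 ipsilateral libraries lie between 0.13 and 0.33, above all 6 contralateral ones, and the reactivity medians of the ipsilateral libraries spread from -0.03 to 0.41.

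Markers of other cells moved between the same sides. The summed CPM of the 15 identity genes was 7478 to 8365 in wt contralateral and 9076 to 9820 in wt ipsilateral cortex, and 7261 to 7992 and 8482 to 9282 in cKO. The sum of 10 neuronal markers was 9353 to 9756 against 8400 to 9543 in wt and 9120 to 9619 against 8118 to 8330 in cKO. The astrocyte sum was higher and the neuronal sum lower on the injured side, with overlap for neurons in wt. Among the 10 neuronal markers, 1 fell in wt (0.184% of tested genes fell) and 2 in cKO (0.178%).

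Endothelial markers, which matter for Emp1, Srgn and Tm4sf1, summed to 456 to 499 CPM against 501 to 606 CPM in wt and to 432 to 514 CPM against 521 to 584 CPM in cKO. Of 14 endothelial genes 1 rose in each genotype, the receptor gene Flt1, and 14 of 14 in wt and 12 of 14 in cKO lay above 0, with a median log2 difference of 0.21 and 0.19. The 12 neutrophil markers summed to 4.56 to 4.86 CPM against 11.6 to 31.7 CPM in wt. In cKO they summed to 4.34 to 5.67 CPM against 20.2 to 45.7 CPM. Of these 12 markers, 7 passed the filter on low counts, and all 7 rose in both genotypes. The filter can keep a gene through its injured libraries alone, so a marker scarce contralaterally was tested only if high ipsilaterally. The count of 7 is therefore no independent support. Ly6g and Mmp8 were at 0 counts in all contralateral libraries of both genotypes. In ipsilateral libraries 1 to 3 the neutrophil sums were 11.6, 31.7 and 19.997 CPM in wt, where Srgn was at 16.8, 17.4 and 15.8 CPM, and 26.2, 45.7 and 20.2 CPM in cKO, where Srgn was at 13.7, 21.7 and 13.7 CPM. The part of these cells in the rises of Srgn, Emp1 and Tm4sf1 was not tested. Fibroblast and meningeal markers lay lower on the injured side, 10 of 10 below 0 in each genotype (51.2% of tested genes in wt and 51.4% in cKO) with 1 called in wt and 0 in cKO, at sums of 1029 to 1250 against 589 to 995 CPM in wt and 888 to 1191 against 718 to 948 CPM in cKO. Oligodendrocyte precursor markers summed to 546 to 594 against 570 to 658 CPM in wt and to 536 to 566 against 613 to 643 CPM in cKO, where the sides do not overlap. Of these 8 genes 7 lay above 0 in wt and 8 in cKO, with a median log2 difference of 0.21 and 0.25, and C1ql1 alone rose, in cKO. Oligodendrocyte markers summed to 2754 to 4143 against 3823 to 4898 CPM in wt and to 2654 to 4081 against 3980 to 4612 CPM in cKO. Of these 10 genes 7 and 9 lay above 0, with a median of 0.06 and 0.14, and 0 passed the test. The precursor and oligodendrocyte sums thus had higher means on the injured side, as the astrocyte sum did, and the part of these cells in the identity gene differences was not tested. Mural (247 to 345 CPM), microglial (362 to 478 CPM) and monocyte and macrophage (5.31 to 14.8 CPM) sums, given over all 12 libraries, overlapped between sides in both genotypes. Of the 12 microglial markers, 8 lay above 0 in wt and 6 in cKO, with a median log2 difference of 0.09 and 0.02. In each genotype 1 of them, Tmem119, fell, where 0.184% of tested genes fell in wt and 0.178% in cKO.

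Of 30 further astrocyte genes, 28 were above 0 in each genotype (48.8% of tested genes in wt and 48.6% in cKO). Their median log2 difference was 0.29 in wt and 0.23 in cKO. In wt 7 of the 30 rose, where 2.73% of tested genes did. The 7 included the neurotensin receptor Ntsr2 (0.44 ± 0.08), the serine transporter Slc7a10 (0.44 ± 0.08) and the Notch target Hes5 (0.84 ± 0.18). In cKO 2 of the 30 rose (2.56% of tested genes), Hes5 (1.07 ± 0.19) and the glycogen regulator Ppp1r3c (0.67 ± 0.14). Values are log2 differences ± SE, with edgeR adjusted p from 0.00352 to 0.0174 for the genes named, and none of the 30 fell.

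Genes of the signals that drive gliosis, such as the cytokines that act through Stat3, were listed as well. Of 25 tested, 9 rose and 0 fell in each genotype, where 2.73% of all tested genes rose in wt and 2.56% in cKO. In each genotype 18 of the 25 lay above 0 and 7 below, with a median log2 difference of 0.20 in wt and 0.18 in cKO. Socs3, the feedback inhibitor of cytokine signalling through Stat3, was at 4.35, 6.88 and 5.58 CPM against 26.2, 37.1 and 30.5 CPM in wt and at 5.11, 4.90 and 4.71 CPM against 38.2, 37.5 and 35.0 CPM in cKO. Stat3, the transcription factor needed for Gfap induction in mouse astrocytes, rose by 0.34 ± 0.07 and 0.37 ± 0.07 (log2 difference ± SE, edgeR adjusted p 0.0135 and 0.00800). Hbegf, a ligand of the epidermal growth factor receptor, rose by 1.26 ± 0.12 and 1.34 ± 0.12, Tgfb1, a transforming growth factor, by 1.12 ± 0.18 and 1.09 ± 0.19, and the receptor gene Notch1 by 0.62 ± 0.12 and 0.55 ± 0.12, with edgeR adjusted p from 4.68e-06 to 0.0189. The cytokine genes Osm and Lif rose in both genotypes.

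Among the other genes of the reactivity panels, Cd14, a lipopolysaccharide co-receptor of the A2 panel that myeloid cells also express, rose by 3.39 ± 0.23 in wt and 3.62 ± 0.23 in cKO (log2 ± SE). Ptgs2, the inducible cyclooxygenase that cortical neurons also express, rose by 2.20 ± 0.18 and 2.16 ± 0.18. Osmr, the oncostatin M receptor of the shared panel, rose by 0.91 ± 0.21 and 0.98 ± 0.21. Adjusted p from edgeR ran from 1.60e-07 to 0.0277 for these 3 genes. In counts, 3 of 5 shared, 0 of 8 tested A1 and 2 of 4 A2 genes of this remainder rose in wt, where the A1 gene Fkbp5, a glucocorticoid target, fell by 0.62 ± 0.15. In cKO 2 of 5, 0 of 8 and 3 of 4 rose and none fell. Over all tested genes 2.73% rose and 0.184% fell in wt, and 2.56% rose and 0.178% fell in cKO. Log2 differences of the 5 shared genes of this remainder ran from 0.56 to 3.26 in wt and from 0.84 to 4.06 in cKO.

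Between genotypes no member passed the test on either side, and neither did any of the 16836 genes (0% called by edgeR in each of these comparisons). At an unadjusted p under 0.05 there were 987 genes (5.86%) on the ipsilateral side, 455 (2.7%) on the contralateral side and 381 (2.26%) for the difference between the injury responses, of which 5, 1 and 2 were members. The DESeq2 test called 0 members in all 3, and 12 genes in all on the ipsilateral side, 3 on the contralateral side and 0 for the difference. Without a filter on low counts edgeR called Gfap and Steap4 on the ipsilateral side and Emp1 for the difference. That fit called 119 of 29438 genes higher and 104 lower in cKO on the ipsilateral side, and 49 higher and 23 lower for the difference.

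On the ipsilateral side the 5 members with the smallest p were Steap4, S100b, Gfap, Aspg and Slc4a4. Steap4 differed by 1.37 ± 0.47 (log2, cKO minus wt, SE, 95% interval 0.36 to 2.37) and Gfap by 0.40 ± 0.14 (0.09 to 0.71), the cKO side being higher. S100b differed by -0.20 ± 0.07 (-0.35 to -0.05), Aspg by -0.52 ± 0.21 (-0.97 to -0.07) and Slc4a4 by -0.21 ± 0.10 (-0.41 to -0.0047). Their edgeR adjusted p ran from 0.754 to 0.842. The 3 cKO libraries lay below the 3 wt libraries for S100b, whereas Gfap overlapped through wt ipsilateral library 2. Non-overlap with cKO lower held for 4 of 33 members and with cKO higher for 1, where 5.99% and 5.6% of tested genes did so. Sox9, Srgn and Tm4sf1 differed by -0.07 (-0.36 to 0.22), -0.01 (-0.34 to 0.32) and 0.03 (-0.23 to 0.29).

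On the contralateral side Emp1 had the smallest p, at -0.66 ± 0.25 (95% interval -1.196 to -0.13), with all 3 cKO libraries below the wt ones. Ggta1 (-0.44 ± 0.21), B3gnt5 (-0.54 ± 0.43), Nes (-0.30 ± 0.25) and Slc4a4 (-0.11 ± 0.10) followed, all at edgeR adjusted p of 1. Without wt contralateral library 3 the Slc4a4 difference was 0.02. Non-overlap was lower in cKO for 4 of 33 members and higher for 0, against 3.6% and 3.4% of tested genes.

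The injury responses of the 2 genotypes were compared by their difference, cKO minus wt, which shares all 12 libraries with the comparisons above. It was 0.97 ± 0.31 for Emp1 (95% interval 0.32 to 1.63), whose contralateral and ipsilateral means were 2.72 and 16.7 CPM in wt and 1.77 and 20.5 CPM in cKO. Ggta1 had 0.76 ± 0.31 (0.11 to 1.42), Gfap 0.36 ± 0.20 (-0.08 to 0.79), Cd44 0.77 ± 0.46 (-0.21 to 1.75) and Aspg -0.46 ± 0.29 (-1.08 to 0.16), with edgeR adjusted p of 1 for all 5. The intervals for Srgn (-0.47 to 0.53), Tm4sf1 (-0.20 to 0.54) and Sox9 (-0.51 to 0.31) include 0. Of the 15 identity genes 5 rose in wt and 1 in cKO, but the difference between the responses passed for none of them.

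Several members differ between the count and the TPM scale. For Gjb6, a connexin of astrocytes, TPM in wt were 83.4, 90.2 and 87.2 contralaterally against 69.7, 52.7 and 76.0 ipsilaterally, while CPM were 62.4, 60.2 and 63.6 against 59.8, 66.7 and 77.2. In cKO the TPM were 68.1, 66.5 and 57.7 against 95.8, 80.4 and 103, and the CPM 64.2, 66.4 and 60.1 against 64.4, 78.6 and 65.6. On the TPM scale the wt sides therefore separate with the injured side lower and the cKO sides with the injured side higher, and on the CPM scale the log2 difference was 0.13 in both. Counts per TPM, scaled between libraries, varied 1.62-fold over the libraries for Gjb6, where the median of the 5903 genes with a mean of at least 20 TPM and no library at 0 was 1.09-fold and 1.44% reached the Gjb6 value. Vim varied 1.85-fold, with cKO ipsilateral library 3 at 89.9 TPM and 45.7 CPM against 50.4 to 53.2 TPM in the other two. The TPM scale also moved the median of all genes in the wt comparison to -0.18 (limma on log2(TPM + 1)), and against that shift 13 of 15 identity genes lay above the median gene. The abundant noncoding RNA Bc1, which takes a share of the TPM, was at 83028 to 167036 TPM in 11 libraries and at 10548 TPM in cKO ipsilateral library 3.

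**Figure D5:**
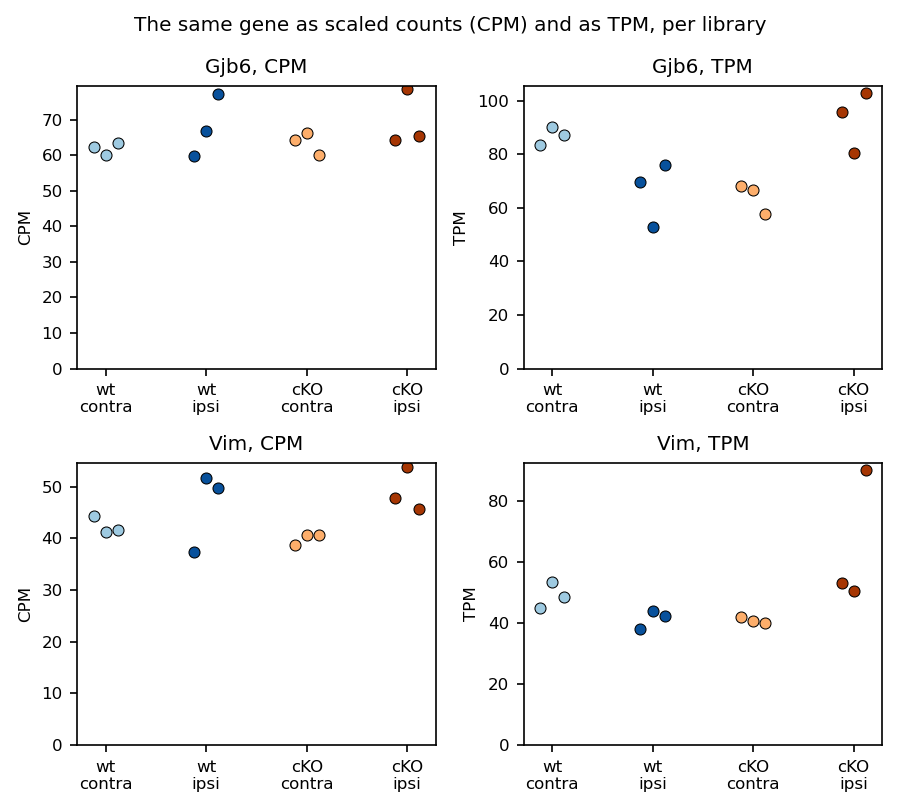
Gjb6 (top) and Vim (bottom) in each library as CPM (left) and as TPM (right), y axes from 0, 3 points per group in replicate order. For Gjb6 the wt ipsilateral points lie below the contralateral ones in TPM but not in CPM, and for Vim 1 cKO ipsilateral library reaches 89.9 TPM.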

How the data were processed

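The build mm10 and the tools Trim Galore 0.6.4 (read trimming), STAR 2.7.1a (alignment), RSEM 1.2.28 (quantification) and DESeq2 1.36.0 are named in the submitters' processing notes, without their settings. The authors deposited RSEM estimated counts (whole numbers, used as deposited) and TPM per gene. The annotation and strand setting are not given in the sources used here. Per the labels, libraries were made with the TruSeq stranded mRNA kit.

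Symbols came from GENCODE M21 by gene identifier (55227 of 55487, 99.5%), with all 204 listed genes found. The filter filterByExpr of edgeR (at least 10 counts in enough libraries and 15 in all) left 16836 genes. Counts were scaled by TMM and fitted with edgeR 4.0.16 (quasi-likelihood, R 4.3.3) over all 4 groups of 3 libraries, with two-sided p adjusted by Benjamini-Hochberg over all tested genes at 0.05. CPM used TMM-scaled library sizes. The floor of 3 counts was 0.0881 to 0.373 CPM and covers counting error only. Members and lists were chosen with earlier results of these data known. Named genes were every member with its levels, fold changes for called members, for the most abundant members, Gfap, Vim and Aqp4, and for the 5 smallest p where none was called, plus, per other list and comparison, up to 6 called genes by smallest adjusted p. Flt1, Tmem119 and C1ql1, of the cell type lists, were named after their values were seen. Values given for other members show single libraries. Code was tested on simulated counts.

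Alternatives were DESeq2 1.42.0 size factors and test, scaling by totals, leaving out the filter, requiring 1 CPM in 3 libraries with 100 counts in all, limma 3.58.1 (voom, and log2 TPM with 1 or 0.1 added), each library left out, the replicate block, and the compared groups alone. GC and length trends removed (span 0.3), the pair cKO ipsilateral 3 and wt contralateral 3 left out, and medians under each setting were added after seeing the data.

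Equal replicate numbers are not said to be 1 animal. Deviations of same-numbered sides correlated at -0.30 to 0.46 in wt and 0.24 to 0.31 in cKO (over 9866 genes averaging 10 CPM or more). Same-numbered libraries of the different genotypes cannot be 1 animal. They correlated at -0.31 to -0.24 on the contralateral side and at 0.07 to 0.16 on the ipsilateral side. These values do not settle whether the sides are paired, and the main fit used no block.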

Additional observations from a re-analysis of the deposited data

How the results depend on the processing

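Emp1 and Srgn rose in both genotypes under all 24 alternatives each, and Sox9 and Tm4sf1 under all but the 2 TPM fits. The count of identity genes that rose in wt (5) was 1 with library totals, 11 with no filter, 8 with the DESeq2 test, 0 in both TPM fits, 2 with the compared groups alone and 1 to 7 with 1 library left out. In cKO (1) it was 6 with no filter, 2 with DESeq2, 0 in both TPM fits, 1 to 2 with 1 library left out, and 2 without cKO ipsilateral 3 and wt contralateral 3. The reactivity count in cKO (3) was 7 with no filter (Gfap, Cd44, Steap4 and Sphk1 added), 5 with DESeq2 and 2 in both TPM fits. It was 3 to 6 with 1 library left out, and 6 without those 2 libraries. Sphk1 was also added in cKO by limma-voom and with GC and length trends removed. In wt the reactivity count (3) was 2 in both TPM fits, and Sphk1 was added with no filter, with DESeq2 and with the compared groups alone. With no filter, 2 members were called between genotypes on the injured side (119 of 29438 genes being called higher and 104 lower) and 1 for the difference of responses (49 and 23).

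In the TPM fits with 1 and 0.1 added, the wt identity median was 0.0751 and 0.0755, the wt reactivity median -0.0888 and -0.0947, Vim in wt -0.23 and -0.24, and Slc4a4 between genotypes on the injured side 0.0497 and 0.0509. With 1 library left out, the wt identity median ran from 0.23 to 0.31, the wt reactivity median from 0.10 to 0.28, Gfap in wt from -0.22 to 0.0638, and Slc4a4 between genotypes on the opposite side from -0.18 to 0.0230, the last being 0.0231 without both libraries. The cause was not tested.

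The replicate block left the wt identity count at 5 and gave 4 reactivity genes in cKO, adding Gfap (0.32, edgeR adjusted p 0.0384). In wt it took in Slc1a3 and lost Acsbg1, and it changed no other member's call. Low counts limit Steap4, B3gnt5, Cd109 and Cd44 most, above all in cKO ipsilateral library 3.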
